A study of Mus musculus with 4 samples.

Results

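Batf, Irf4, Prdm1, Nfil3, Rora, Gata3, Pparg, Ikzf3, Maf and Bhlhe40 are 10 transcription factors linked to the effector state of regulatory T cells, or Tregs, which hold immune responses in check. They were taken by symbol, 10 of the 31053 genes measured, and all 10 had at least 1 unique molecular identifier (UMI, the count of a distinct RNA molecule) in the cells analysed. The cells were CD4 T cells sorted from the lungs of C57BL/6 mice, either normal mice or mice of matched age that had received TC1 tumor cells by tail vein 3 weeks before. TC1 is a transplantable mouse lung epithelial tumor line. Each tissue gave 1 droplet-based 5′ gene expression library and 1 T cell receptor library, and the number of mice behind a library is not stated. With 1 library per tissue there was no test between samples and no p-value: every ratio compares these libraries or gates within them, and tissue and batch cannot be told apart.

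After filtering, 7135 tumor and 7082 normal cells remained, with 31921001 and 28084248 UMIs and medians of 4173 and 3906 UMIs per cell. Cells were gated by their UMIs. A cell with at least 1 Foxp3 UMI is called Foxp3+ and a cell with 0 is called Foxp3-, and Ccr7, Il1rl1 and Cxcr3 were used in the same way. In the tumor library 1147 cells (16.1%) were Foxp3+, of which 746 were Ccr7- and 401 were Ccr7+. In the normal library 206 cells (2.91%) were Foxp3+, of which 31 were Ccr7- and 175 were Ccr7+. The Foxp3- cells fell into 1139 Ccr7- and 4849 Ccr7+ cells in the tumor library and into 682 and 6194 in the normal library. Levels are CPM, the UMIs of a gene summed over a gate per 1000000 UMIs of that gate, given with the 95% Poisson interval, and ratios of CPM carry an exact 95% interval. All intervals cover counting error only and treat the UMIs of a cell, and the cells of a clone, as independent.

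Foxp3 is the lineage factor of Tregs. Ccr7 is the homing receptor of naive and resting T cells, and Tregs that have lost it are commonly called effector Tregs. Batf and Irf4 are induced by T cell receptor signals and bind DNA together at composite elements with Jun proteins, and in mice both are needed for effector Tregs in non-lymphoid tissue. Prdm1 encodes Blimp-1, a repressor that marks effector Tregs able to make interleukin-10. Gata3, Rora and Pparg are linked to tissue Tregs and to type 2 responses, Il1rl1 encodes ST2, the receptor of interleukin-33, and Cxcr3 is the chemokine receptor of Tregs that express the type 1 factor Tbx21.

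The gates matched their labels in the main markers. All 6 CD4 T cell markers were detected in each of the 8 gates made by library, Foxp3 and Ccr7, with a summed level between 3231 and 4209 CPM. The Treg identity list summed to 5800 and 4155 CPM in tumor Foxp3+ Ccr7- and Ccr7+ cells, and to 4305 and 2416 CPM in the normal library. The list includes the gating gene Foxp3. Foxp3 alone stood at 857 and 682 CPM in these tumor gates and at 800 and 526 CPM in the normal ones. In Foxp3- Ccr7- cells, where Foxp3 is 0 by the gate, the list was not 0. It summed to 939 CPM there in the tumor and 385 CPM in the normal library. The Foxp3- gate may hold Tregs whose Foxp3 RNA was not caught, but the sum alone does not show this, and it was not tested. NK cell and basophil or mast cell markers were at 0 in all 4 Foxp3+ gates, and so were the B cell marker Ms4a1 and the cytokines Il5 and Il13 of type 2 innate lymphoid cells. B cell markers summed to 417 CPM in tumor Foxp3+ Ccr7- cells against 126 CPM in Foxp3- Ccr7- cells, of which 1454 of 1543 and 544 of 564 UMIs were Ighm. Myeloid markers summed to 200 and 116 CPM, mostly Cst3. The 2 libraries shared 86 cell barcodes, 74 of them among the cells kept of each library.

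On GRCm38.p6 the genes span Batf at chr12:85686720-85709087, Irf4 at chr13:30749233-30766981, Prdm1 at chr10:44437174-44528558, Nfil3 at chr13:52967209-52982878, Rora at chr9:68653404-69388246 and Gata3 at chr2:9857078-9887953. The other genes span Pparg at chr6:115360879-115490404, Ikzf3 at chr11:98464610-98546031, Maf at chr8:115703253-115706894 and Bhlhe40 at chr6:108660629-108666925. No gene overlaps another of the 10, and counts are per gene, so exons and introns were not told apart here.

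Windows of 250 bases before the annotated starts were available for 7 of the 10 factors, from RefSeq on GRCm38.p6, and not for Bhlhe40, Ikzf3 and Maf. The windows of 4 factors are shown because the results set Batf and Irf4, which were under 1.5-fold between all Foxp3+ and all Foxp3- cells, against Prdm1 and Nfil3, which were past it. They lie at chr12:85686470-85686719 (plus strand), chr13:30748983-30749232 (plus strand), chr10:44458749-44458998 (minus strand) and chr13:52981040-52981289 (minus strand), are written 5′ to 3′ in the direction of the gene, and have capitals where a searched motif was found.
Batf: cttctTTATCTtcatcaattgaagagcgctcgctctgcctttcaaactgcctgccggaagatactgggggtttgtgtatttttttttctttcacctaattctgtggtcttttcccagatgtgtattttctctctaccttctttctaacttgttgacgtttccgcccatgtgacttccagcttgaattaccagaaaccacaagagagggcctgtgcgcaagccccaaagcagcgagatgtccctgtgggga
Irf4: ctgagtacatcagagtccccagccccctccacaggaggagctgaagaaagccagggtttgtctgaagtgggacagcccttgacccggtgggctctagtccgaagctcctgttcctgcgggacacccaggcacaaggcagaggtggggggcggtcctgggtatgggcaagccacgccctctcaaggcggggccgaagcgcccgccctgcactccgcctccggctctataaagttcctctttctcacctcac
Prdm1: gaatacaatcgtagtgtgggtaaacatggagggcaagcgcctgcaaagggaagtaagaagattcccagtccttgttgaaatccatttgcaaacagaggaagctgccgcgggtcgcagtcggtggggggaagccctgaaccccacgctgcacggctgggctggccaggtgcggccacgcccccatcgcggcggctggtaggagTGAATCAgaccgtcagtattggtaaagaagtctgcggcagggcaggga
Nfil3: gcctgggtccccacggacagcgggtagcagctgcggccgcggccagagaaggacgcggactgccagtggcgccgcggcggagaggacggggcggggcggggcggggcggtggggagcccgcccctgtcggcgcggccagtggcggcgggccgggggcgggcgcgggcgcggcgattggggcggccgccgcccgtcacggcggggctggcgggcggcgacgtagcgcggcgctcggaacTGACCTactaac
The motifs searched on both strands were TGANTCA, bound by AP-1 factors, then CACGTG, the E-box of helix-loop-helix factors, then AGATAA, bound by the Gata family, then AGGTCA, bound by ROR receptors, and last GAAANNGAA, bound by interferon regulatory factors. None of them contains another, and they were present in 6.75%, 6.02%, 9.99%, 14.0% and 7.13% of 32841 such windows of all genes. Prdm1 held an AP-1 match 48 bases before the start used, Batf a Gata match 245 bases before, and Nfil3 a ROR match 12 bases before, while Irf4 held none. The Prdm1 and Nfil3 windows lie inside the gene spans given above, so the starts used there are not the outermost ends of these genes. The other matches were ROR motifs 28 and 9 bases before 2 of the 3 starts of Pparg, and Gata3 and Rora held none. GC content was 46.4% for Batf, 63.6% for Irf4, 59.2% for Prdm1 and 81.6% for Nfil3. A match describes letters in the window and is not evidence of binding.

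The first comparison set Foxp3+ against Foxp3- cells of the same library. In the tumor library 8 of the 10 factors were at least 1.5-fold higher in Foxp3+ cells and none was 1.5-fold lower, beside 29.5% of 11418 genes tested that were higher. The exceptions were Batf and Irf4, which did not reach 1.5-fold in this unsplit comparison, although the interval of Batf lay above 1. A gene was compared when both gates together held at least 20 UMIs, and 1.5-fold is the call used throughout. The median log2 ratio of the 10 factors was 2.40, beside 0.22 for all genes tested, and median-of-ratios scaling, which removes that shift, left the same 8 factors past 1.5-fold. In the normal library 7 of the 9 factors with enough UMIs were higher, beside 16.5% of genes, with Batf and Irf4 again below 1.5-fold and Pparg under 20 UMIs. In the summed counts of a gate, fewer cells with a factor and less RNA per cell cannot be told apart.

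**Figure D1:**
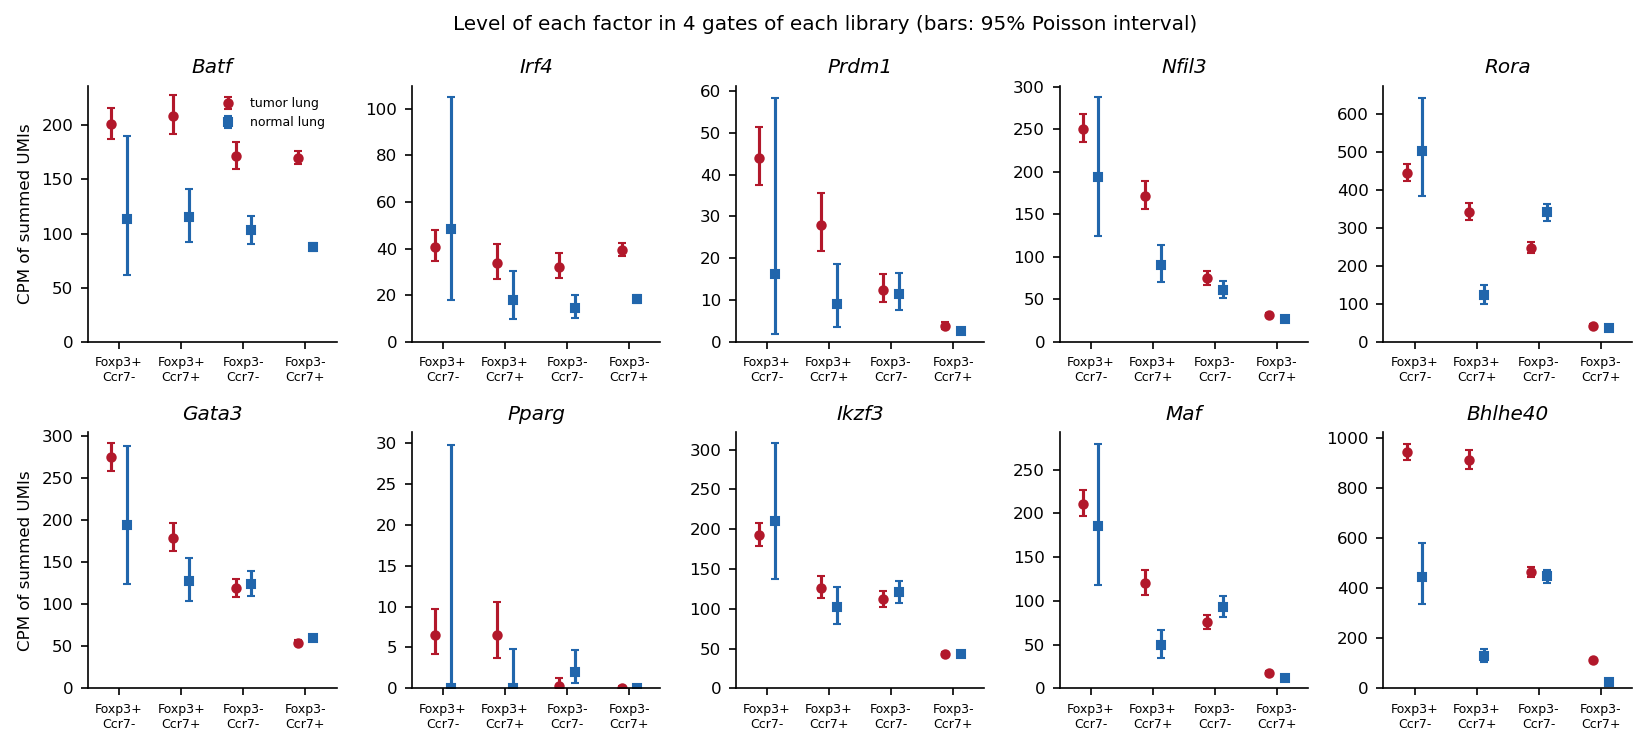
Level of each factor in CPM of summed UMIs (vertical axis, from 0) in 4 gates of the tumor library (red circles) and the normal library (blue squares), with bars for the 95% Poisson interval. Bhlhe40 stood at 941 and 912 CPM in the tumor Foxp3+ gates, above every other gate, while Batf separated the libraries more than the gates.

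Batf, an AP-1 factor of the leucine zipper type, was present at levels within 1.5-fold of each other in the 4 tumor gates. In the order Foxp3+ Ccr7-, Foxp3+ Ccr7+, Foxp3- Ccr7- and Foxp3- Ccr7+, it stood at 201 (187 to 216), 209 (192 to 228), 172 (160 to 185) and 170 (164 to 176) CPM in the tumor library. In the normal library it stood at 113 (61.8 to 190), 115 (92.1 to 141), 103 (90.5 to 116) and 87.9 (84.2 to 91.7) CPM. Each tumor level lay above the normal level of the same gate, and only in the Foxp3+ Ccr7- gate, with 31 normal cells, did the intervals overlap. The ratio of Foxp3+ to Foxp3- cells was 1.20 (1.13 to 1.28) in the tumor and 1.28 (1.04 to 1.56) in the normal library. Irf4, the interferon regulatory factor that pairs with Batf, stood at 40.8 (34.6 to 47.9), 33.7 (26.9 to 41.8), 32.3 (27.2 to 38.0) and 39.4 (36.8 to 42.2) CPM in the tumor library and at 48.5 (17.8 to 105), 18.0 (9.86 to 30.3), 14.6 (10.2 to 20.2) and 18.5 (16.8 to 20.3) CPM in the normal library, in the same order. The 4 tumor intervals had their lower ends above every normal point estimate other than that of the Foxp3+ Ccr7- gate, which rested on 6 UMIs. Its ratio of Foxp3+ to Foxp3- cells was 0.995 (0.859 to 1.15) in the tumor library and 1.23 (0.742 to 1.91) in the normal library.

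Prdm1 followed Foxp3 and also Ccr7. Its levels in the same order were 44.1 (37.6 to 51.4), 28.0 (21.8 to 35.5), 12.5 (9.41 to 16.2) and 3.86 (3.07 to 4.79) CPM in the tumor library and 16.2 (1.96 to 58.4), 9.02 (3.63 to 18.6), 11.4 (7.56 to 16.4) and 2.67 (2.06 to 3.40) CPM in the normal library. The tumor Foxp3+ Ccr7- gate was highest, the Foxp3- Ccr7+ gates were lowest in both libraries, and the normal Foxp3+ gates held only 2 UMIs in 1 cell and 7 UMIs in 6 cells. Foxp3+ cells had 7.03 (5.67 to 8.75) times the level of Foxp3- cells in the tumor library, 232 against 138 UMIs, so that 16.1% of the cells held 62.7% of the library's Prdm1 UMIs. The normal ratio was 2.89 (1.28 to 5.73). Nfil3, a basic leucine zipper repressor induced by cytokines, stood at 251 (235 to 268), 172 (156 to 189), 75.2 (67.4 to 83.7) and 32.0 (29.7 to 34.5) CPM in the tumor library. Normal cells had 194 (124 to 288), 90.2 (70.3 to 114), 60.9 (51.6 to 71.5) and 27.3 (25.2 to 29.4) CPM, and in both libraries the order of the 4 gates was the same. Foxp3+ over Foxp3- ratios were 5.55 (5.11 to 6.03) in the tumor and 3.45 (2.75 to 4.27) in the normal library.

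Bhlhe40, a helix-loop-helix repressor linked to T cell activation and cytokine control, stood at 941 (910 to 973), 912 (875 to 951), 463 (443 to 483) and 111 (107 to 116) CPM in the tumor library. Its levels in normal cells were 444 (335 to 578), 130 (106 to 158), 447 (421 to 474) and 24.0 (22.1 to 26.0) CPM. Both tumor Foxp3+ gates were alike and high, whereas in the normal library the Foxp3+ Ccr7- and Foxp3- Ccr7- gates were alike and the Ccr7+ gates were low. Among Ccr7- cells the Foxp3+ over Foxp3- ratio was 2.03 (1.93 to 2.15) in the tumor and 0.994 (0.744 to 1.30) in the normal library. Maf, a large Maf factor that drives interleukin-10 in several T cell types, stood at 211 (197 to 227), 120 (107 to 135), 75.7 (67.8 to 84.2) and 17.5 (15.8 to 19.4) CPM in the tumor library and at 186 (118 to 279), 49.0 (34.6 to 67.2), 93.4 (81.7 to 106) and 11.9 (10.6 to 13.3) CPM in the normal library. Its Foxp3+ over Foxp3- ratio was 6.32 (5.74 to 6.95) in the tumor and 3.52 (2.65 to 4.59) in the normal library. Ikzf3 encodes Aiolos, an Ikaros family factor, and stood at 193 (179 to 208), 126 (113 to 141), 112 (102 to 122) and 42.7 (40.0 to 45.6) CPM in the tumor library and at 210 (137 to 308), 102 (80.6 to 127), 121 (107 to 135) and 43.0 (40.5 to 45.7) CPM in the normal library. The intervals of the libraries overlapped in each of the 4 gates, and the Foxp3+ over Foxp3- ratio was 3.04 (2.80 to 3.30) in the tumor and 2.33 (1.89 to 2.85) in the normal library.

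Rora, an orphan nuclear receptor of type 2 innate lymphoid cells and tissue Tregs, stood at 445 (424 to 467), 342 (320 to 366), 247 (233 to 262) and 42.8 (40.1 to 45.7) CPM in the tumor library. The normal library had 501 (384 to 642), 122 (99.0 to 150), 340 (317 to 363) and 36.0 (33.6 to 38.4) CPM. It was low only in Foxp3- Ccr7+ cells of both libraries and intermediate in normal Foxp3+ Ccr7+ cells. Gata3, the master factor of type 2 helper cells that is also used by tissue Tregs, stood at 275 (258 to 292), 179 (163 to 197), 119 (109 to 130) and 54.2 (51.1 to 57.4) CPM in the tumor library and at 194 (124 to 288), 128 (104 to 155), 124 (110 to 139) and 59.4 (56.4 to 62.5) CPM in the normal library. Foxp3+ over Foxp3- ratios in the tumor and normal library were 5.16 (4.86 to 5.47) and 2.75 (2.32 to 3.24) for Rora, and 3.61 (3.37 to 3.88) and 2.10 (1.73 to 2.52) for Gata3. Pparg, the nuclear receptor of adipose tissue Tregs, was the scarcest of the 10 by UMI count. It had 24 and 16 UMIs in the tumor Foxp3+ Ccr7- and Ccr7+ gates, which is 6.49 (4.16 to 9.66) and 6.50 (3.71 to 10.6) CPM, and 1 UMI in each Foxp3- gate. The 40 UMIs lay in 30 of 1147 Foxp3+ cells, and 95.2% of the library's Pparg UMIs were in Foxp3+ cells. The ratio was 83.7 (21.7 to 714), and it was 4.60 on the log2 scale with gates and values from thinned cells, against 6.39. Pparg in the normal library had 0 UMIs in Foxp3+ cells, whose upper Poisson limit of 4.10 CPM lies under the lower end of the tumor interval of 4.64 to 8.84 CPM, and 5 UMIs in Foxp3- Ccr7- cells.

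Shares of cells with a UMI ordered the tumor gates as the levels did for Bhlhe40, Rora and Prdm1, and for Batf apart from the Foxp3- gates, which changed places. In tumor cells, in the order of gates used above, Bhlhe40 was found in 78.3%, 71.1%, 38.5% and 13.1% of cells and Rora in 74.7%, 60.1%, 36.6% and 10.2%. Batf was found in 50.9%, 60.8%, 40.3% and 44.3% of cells, and Prdm1 in 18.0%, 12.7%, 4.13% and 1.61%. The Foxp3+ gates were deeper, with medians of 4566 and 5223 UMIs per cell against 3777 and 4176 UMIs in the Foxp3- gates. After each cell was thinned to 2417 UMIs, the shares of Bhlhe40 were 69.4%, 59.7%, 32.1% and 9.90%, and those of Batf were 32.4%, 37.7%, 28.4% and 30.2%. Bhlhe40 kept its order of gates, and Batf shares lay close to each other. No cell type that should lack these genes was present in number, so a background share from free RNA could not be set. Pparg was found in 0.0206% of Foxp3- Ccr7+ cells. It was the scarcest of the 10 factors by UMI count, so its share sets no background for the others.

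The Foxp3 comparison was repeated within each Ccr7 gate. Among tumor Ccr7- cells 8 of 10 factors were higher in Foxp3+ cells, beside 22.6% of genes, and among tumor Ccr7+ cells 7 of 9, beside 26.4%. The counts in the normal library were 5 of 9 among Ccr7- cells, beside 22.0% of genes, and 7 of 9 among Ccr7+ cells, beside 15.6%. Among normal Ccr7- cells the factors past 1.5-fold were only in part those of the unsplit comparison. Irf4 was past it at 3.31 (1.14 to 7.94), from 6 against 36 UMIs, and Gata3 was past it at 1.57 (0.987 to 2.37) with an interval across 1. Prdm1 at 1.42 (0.164 to 5.63), Rora at 1.48 (1.12 to 1.91) and Bhlhe40 at 0.994 (0.744 to 1.30) were under it. Irf4 was 1.27 (1.00 to 1.60) among tumor Ccr7- and 0.855 (0.674 to 1.07) among tumor Ccr7+ cells. Rora and Bhlhe40 had the widest gap between the splits in the tumor library. Rora was 1.80 (1.67 to 1.95) times as high in Foxp3+ cells among Ccr7- cells and 8.0 (7.28 to 8.80) times among Ccr7+ cells, and Bhlhe40 was 2.03 (1.93 to 2.15) and 8.20 (7.74 to 8.69) times as high. Batf kept ratios of 1.17 (1.06 to 1.30) and 1.23 (1.12 to 1.35). The ratios depend on which Foxp3- cells are counted. Foxp3- cells with a UMI of Ikzf2, Il2ra, Lrrc32 or Gpr83 were left out in an alternative added after the data were seen. It gave Nfil3 a ratio of 4.86 and Maf a ratio of 3.71 among tumor Ccr7- cells, against 3.34 and 2.79. Over all comparisons with Foxp3- cells, it moved 26 of 101 log2 ratios out of their counting interval. Whether the cells left out were Tregs was not tested.

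**Figure D2:**
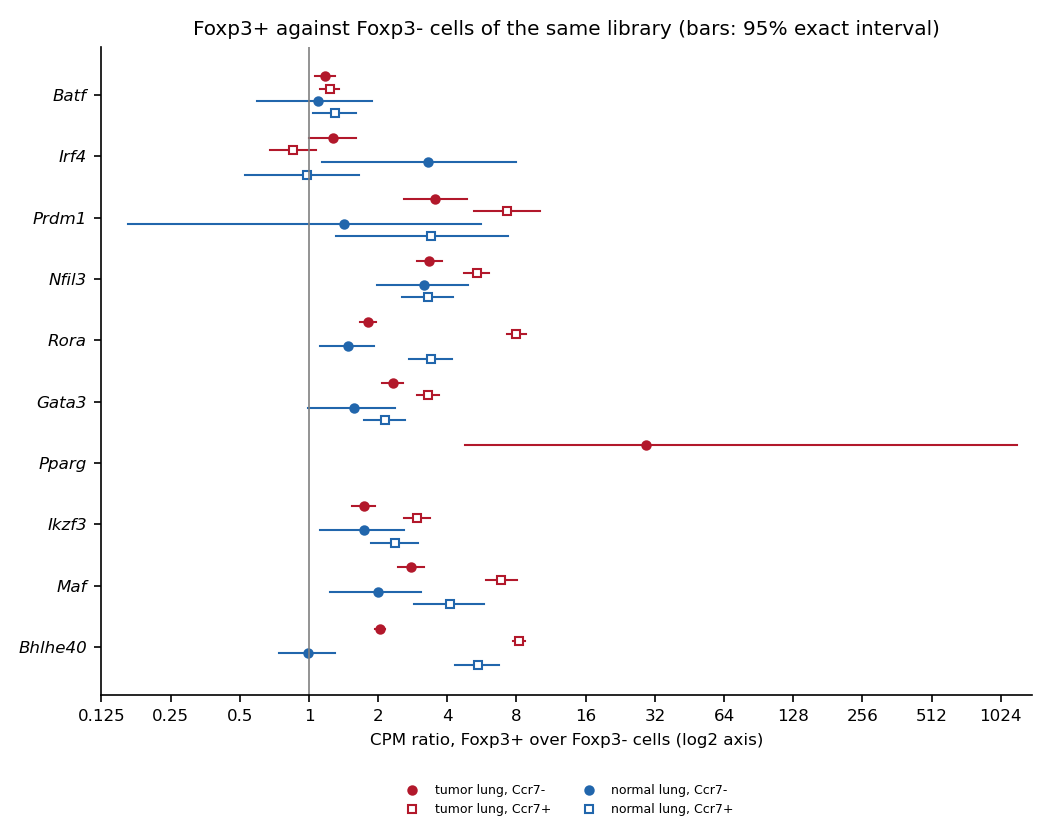
Ratio of CPM in Foxp3+ over Foxp3- cells of the same library (horizontal log2 axis) for each factor, in the tumor (red) and normal (blue) library and in Ccr7- (filled circles) and Ccr7+ (open squares) cells, with 95% exact intervals; untested pairs are not drawn. Rora and Bhlhe40 sit near 8 in tumor Ccr7+ cells and at 1.80 and 2.03 in tumor Ccr7- cells, and Batf stays near 1 throughout.

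Within Foxp3+ cells, the split by Ccr7 UMIs gave smaller differences in the tumor than in the normal library for Bhlhe40, Rora and Maf. For the other factors tested in both libraries the intervals overlapped. In the tumor library 4 of 10 factors were 1.5-fold higher in Ccr7- cells, beside 9.39% of genes, and in the normal library 7 of 8, beside 26.0%. The 4 in the tumor library were Maf at 1.76 (1.53 to 2.02), Prdm1 at 1.57 (1.18 to 2.12), Gata3 at 1.53 (1.37 to 1.72) and Ikzf3 at 1.53 (1.34 to 1.75), and only Maf remained past it with median-of-ratios scaling. Nfil3 at 1.46 (1.30 to 1.64) and Rora at 1.30 (1.20 to 1.42) lay under it, and Batf at 0.963 (0.860 to 1.08) and Bhlhe40 at 1.03 (0.978 to 1.09) had intervals across 1. Normal Foxp3+ cells had Bhlhe40 at 3.41 (2.41 to 4.79), Rora at 4.09 (2.92 to 5.69) and Maf at 3.79 (2.16 to 6.53). Nfil3 at 2.15 (1.29 to 3.46) and Ikzf3 at 2.06 (1.27 to 3.25) were also past 1.5-fold there. So were Gata3 at 1.52 (0.930 to 2.39) and Irf4 at 2.69 (0.846 to 7.44), from 6 against 14 UMIs, with intervals across 1. Batf was at 0.986 (0.518 to 1.74). Naive T cell markers summed to 2321 CPM in tumor and 5221 CPM in normal Foxp3+ Ccr7+ cells, and Ccr7 itself stood at 1107 and 1949 CPM there; their part in the smaller differences was not tested.

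Foxp3- cells showed larger differences by Ccr7. In the tumor library 7 of 9 factors were higher in Ccr7- cells, beside 14.9% of genes, and in the normal library 7 of 9, beside 17.9%. Bhlhe40 reached 4.16 (3.92 to 4.41) in the tumor and 18.6 (16.8 to 20.6) in the normal library, Rora 5.77 (5.28 to 6.30) and 9.44 (8.58 to 10.4), and Maf 4.31 (3.71 to 5.01) and 7.86 (6.58 to 9.37). Irf4 went the other way at 0.818 (0.681 to 0.977) and 0.791 (0.547 to 1.11), within 1.5-fold. The Pparg UMIs of the normal library all lay in that gate.

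The second comparison set the tumor against the normal library in each gate. Among Foxp3+ Ccr7+ cells, the Tregs that keep the resting receptor, 7 of 9 factors were 1.5-fold higher in the tumor library, beside 25.6% of genes, and among Foxp3+ Ccr7- cells 3 of 10, beside 22.2%. Among Foxp3- Ccr7- cells 2 of 9 were higher, beside 10.2%, and among Foxp3- Ccr7+ cells 3 of 9, beside 7.54%. None was 1.5-fold lower in any of the 4 gates. The all-gene median log2 ratio was 0.17 in Foxp3+ Ccr7+ cells and between -0.02 and 0.03 in the other gates. Bhlhe40 had the highest ratio in both Ccr7+ gates, at 7.01 (5.74 to 8.64) in Foxp3+ and 4.63 (4.23 to 5.07) in Foxp3- cells, while in Foxp3- Ccr7- cells it was 1.04 (0.962 to 1.12). Prdm1, Rora and Maf followed in Foxp3+ Ccr7+ cells at 3.11 (1.43 to 8.02), 2.80 (2.26 to 3.50) and 2.46 (1.75 to 3.54), and Nfil3 at 1.91 (1.48 to 2.50). Gata3 at 1.40 (1.13 to 1.76) and Ikzf3 at 1.24 (0.967 to 1.61) stayed under the threshold. With gates and values from thinned cells, Bhlhe40, Rora and Irf4 in this gate moved to 3.65, 2.13 and 1.98 on the log2 scale, and Gata3 moved past the threshold to 1.11. With at least 2 Foxp3 UMIs, Batf fell under the threshold, to 0.55.

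Batf and Irf4 differed between the libraries in Foxp3- cells as well. Batf was 1.82 (1.45 to 2.31) times as high in the tumor library in Foxp3+ Ccr7+ cells, 1.67 (1.45 to 1.94) times in Foxp3- Ccr7- cells and 1.93 (1.83 to 2.04) times in Foxp3- Ccr7+ cells. For Irf4 the same ratios were 1.87 (1.05 to 3.57), 2.21 (1.52 to 3.27) and 2.13 (1.90 to 2.40). Stress and dissociation genes, a list that holds the AP-1 genes Fos and Jun, summed to 4567 CPM in the tumor and 3549 CPM in the normal Foxp3- Ccr7+ cells, and to 5096 and 3819 CPM in Foxp3- Ccr7- cells; their part in the Batf and Irf4 ratios was not tested. In the Foxp3+ Ccr7- gate, Bhlhe40 at 2.12 (1.62 to 2.82) and Batf at 1.78 (1.06 to 3.27) had intervals above 1. The third factor past the threshold, Prdm1 at 2.73 (0.743 to 22.7), rested on 2 normal UMIs and fell to 0.43 on the log2 scale with thinned cells.

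**Figure D3:**
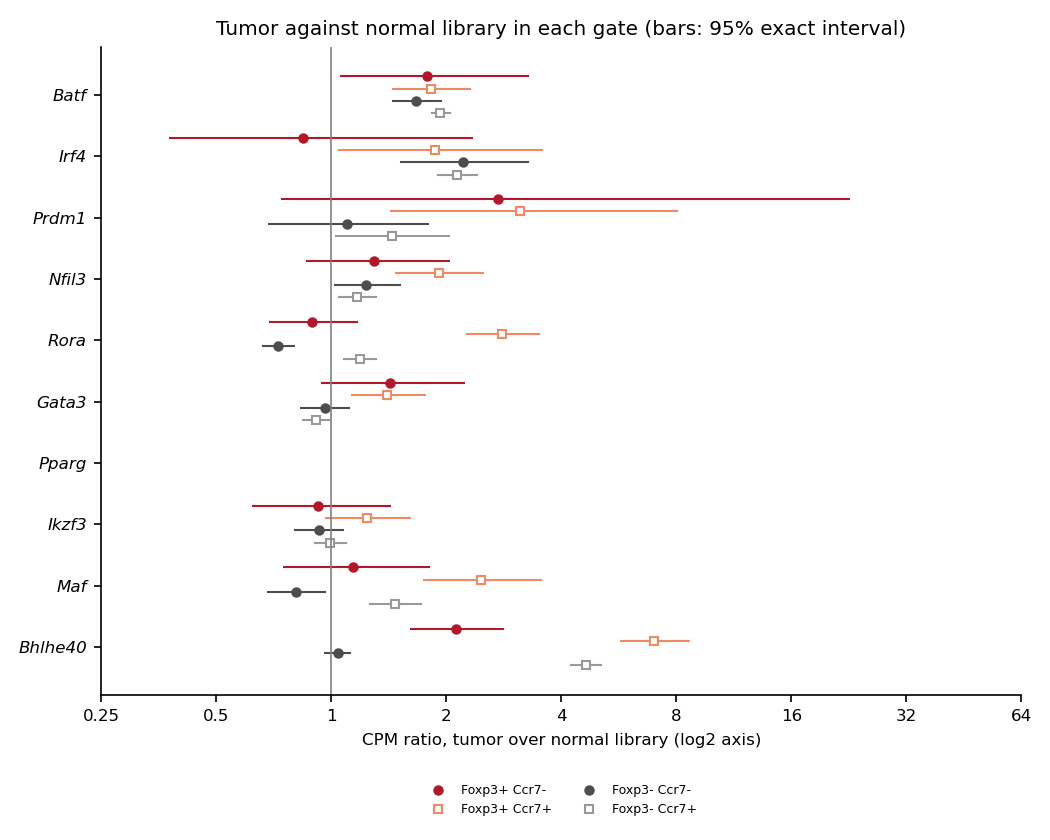
Ratio of CPM in the tumor over the normal library (horizontal log2 axis) for each factor in 4 gates, with 95% exact intervals; untested pairs and Pparg, at 0 in normal Foxp3+ cells, are not drawn. Batf lies between 1.67 and 1.93 in all 4 gates, and Bhlhe40 spreads from 1.04 in Foxp3- Ccr7- cells to 7.01 in Foxp3+ Ccr7+ cells.

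The third comparison split the 1147 tumor Foxp3+ cells by Il1rl1, with 164 Il1rl1+ cells, and by Cxcr3, with 490 Cxcr3+ cells. By Il1rl1, 3 of 10 factors were 1.5-fold higher in the positive cells, beside 5.83% of genes, and they were Pparg, Gata3 and Bhlhe40. Pparg had 22 UMIs in 12 of 164 Il1rl1+ cells and 18 UMIs in 18 of 983 Il1rl1- cells, which is 22.4 (14.1 to 34.0) against 3.48 (2.06 to 5.49) CPM and a ratio of 6.45 (3.30 to 12.8). Gata3 stood at 357 (320 to 396) against 214 (201 to 227) CPM, a ratio of 1.67 (1.48 to 1.88). Bhlhe40 stood at 1331 (1260 to 1406) against 853 (828 to 879) CPM, a ratio of 1.56 (1.47 to 1.66). Gata3 and Bhlhe40 fell to 0.54 and 0.55 on the log2 scale, under the threshold, when Foxp3+ needed 2 UMIs. Rora at 1.48 (1.35 to 1.63) and Batf at 1.30 (1.13 to 1.5) also had intervals above 1, Maf at 0.808 (0.673 to 0.965) had one below 1, and Prdm1 was level at 1.00 (0.685 to 1.43). With thinned cells Maf turned to 0.21 and Prdm1 moved to -1.33 on the log2 scale. Depth moved with this gate, with a median of 5243 UMIs in Il1rl1+ and 4654 UMIs in Il1rl1- cells, and its part in the ratios was not tested. Cell cycle genes summed to 243 CPM in Il1rl1+ and 180 CPM in Il1rl1- cells. Without cells that had an Mki67 or Top2a UMI, 5 factors were past the threshold, with Irf4 at 0.75 and Rora at 0.60 on the log2 scale. Markers of type 2 innate lymphoid cells summed to 52.0 CPM in Il1rl1+ and 13.7 CPM in Il1rl1- cells, with Il5 and Il13 at 0 in both; the part of these markers in the ratios was not tested.

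By Cxcr3, 2 of 10 factors were 1.5-fold higher in the positive cells, beside 5.10% of genes. They were Prdm1, at 48.6 (41.1 to 57.0) against 26.7 (21.2 to 33.1) CPM with a ratio of 1.82 (1.38 to 2.42), and Maf, at 212 (196 to 229) against 137 (125 to 151) CPM with a ratio of 1.55 (1.37 to 1.75). Prdm1 fell to 0.51 on the log2 scale with thinned cells, and Maf fell to 0.51 with at least 2 Foxp3 UMIs, both under the threshold. Ikzf3 was at 1.30 (1.15 to 1.47), and Gata3 was lower at 0.738 (0.664 to 0.820). Depth moved with this gate, with a median of 5439 UMIs in Cxcr3+ and 4269 UMIs in Cxcr3- cells, and cell cycle genes summed to 236 and 144 CPM; the part of either in the ratios was not tested.

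Among the 746 tumor Foxp3+ Ccr7- cells, Gata3, Bhlhe40 and Rora were higher with Il1rl1 and lower with Cxcr3, and Maf was the reverse, all with intervals on 1 side of 1. Each of the other factors had an interval across 1 for at least 1 of the receptors. By Il1rl1, Pparg at 4.33 (1.75 to 10.5), Bhlhe40 at 1.68 (1.56 to 1.82) and Gata3 at 1.59 (1.37 to 1.84) were 1.5-fold higher in positive cells, 3 of 10 beside 6.18% of genes. By Cxcr3, Pparg at 1.76 (0.711 to 4.75) was the only factor 1.5-fold higher, beside 4.79% of genes, with an interval across 1, and its direction turned, to -0.17 on the log2 scale, with thinned cells. Gata3 at 0.577 (0.507 to 0.655) was the only factor 1.5-fold lower, beside 8.71% of genes. Bhlhe40 at 0.741 (0.692 to 0.792) and Rora at 0.792 (0.718 to 0.874) were also lower in Cxcr3+ cells with intervals below 1, and Maf at 1.49 (1.29 to 1.73) and Prdm1 at 1.47 (1.06 to 2.06) were higher with intervals above 1. Nfil3 was under 1 with both receptors, at 0.855 (0.706 to 1.03) by Il1rl1 and 0.885 (0.776 to 1.01) by Cxcr3, with both intervals across 1. Without cycling cells the Il1rl1 ratio of Pparg was 1.02 on the log2 scale against 2.11, and with thinned cells it was 1.43. That of Gata3 was under the threshold without cycling cells (0.56), with thinned cells (0.50) and with at least 2 Foxp3 UMIs (0.52).

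**Figure D4:**
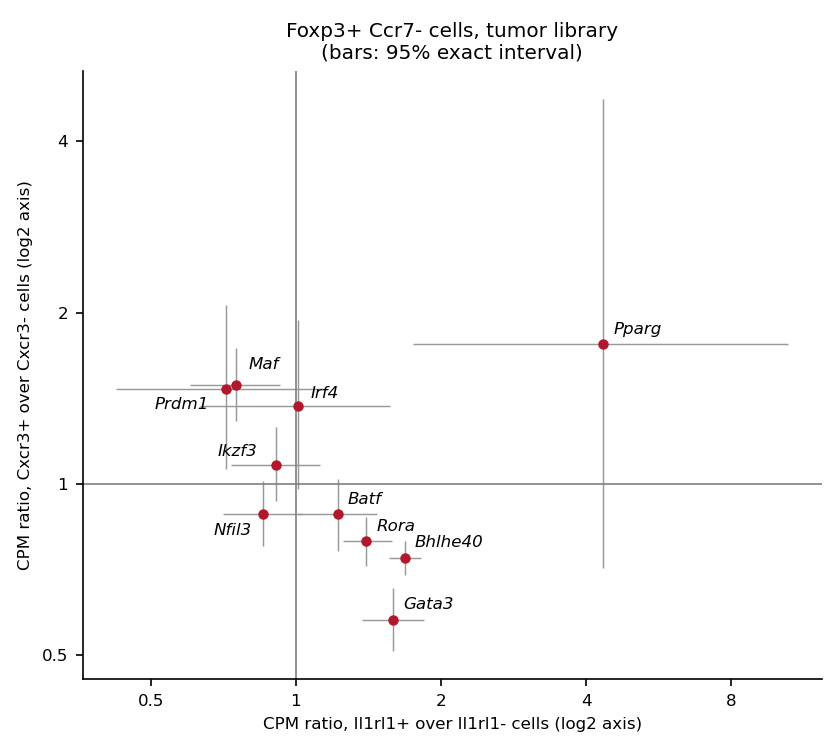
Each factor in tumor Foxp3+ Ccr7- cells by its CPM ratio in Il1rl1+ over Il1rl1- cells (horizontal log2 axis) and in Cxcr3+ over Cxcr3- cells (vertical log2 axis), with 95% exact intervals. Gata3, Bhlhe40, Rora and Batf lie at lower right, higher with Il1rl1 and lower with Cxcr3, and Maf, Prdm1 and Ikzf3 lie at upper left. The intervals of Batf by Cxcr3, Prdm1 by Il1rl1 and Ikzf3 by both receptors cross 1.

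The 2 receptors together made 4 groups of tumor Foxp3+ Ccr7- cells, with 33 cells positive for both, 77 for Il1rl1 alone, 309 for Cxcr3 alone and 327 for neither. Gata3 stood at 444 (380 to 516) CPM with Il1rl1 alone, 329 (299 to 361) CPM with neither, 319 (248 to 403) CPM with both and 190 (170 to 212) CPM with Cxcr3 alone. Cells with Cxcr3 alone were lowest, and their interval did not overlap that of any other group. Bhlhe40 stood at 1599 (1475 to 1730), 946 (895 to 1000), 1120 (984 to 1269) and 769 (729 to 811) CPM in the same order, highest with Il1rl1 alone. Maf stood at 148 (112 to 192), 173 (152 to 197), 196 (142 to 264) and 257 (233 to 281) CPM and was highest with Cxcr3 alone. Of the 24 Pparg UMIs, 8 lay in 4 of the 33 cells with both receptors, 3 in 3 cells with Il1rl1 alone, 8 in 8 cells with Cxcr3 alone and 5 in 5 cells with neither. The median UMIs per cell in these groups ran from 3894 with neither to 6411 with both.

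In the normal library only 16 Foxp3+ cells were Il1rl1+ and 9 were Cxcr3+. By Il1rl1, 7 of 8 tested factors were 1.5-fold higher, beside 25.9% of genes, led by Rora at 4.71 (3.33 to 6.60). Within normal Foxp3+ Ccr7- cells 2 of 6 were higher, beside 15.2% of genes. They were Rora at 1.88 (1.10 to 3.25) and Ikzf3 at 2.03 (0.866 to 5.00), whose interval crossed 1. The others were Gata3 at 1.07 (0.435 to 2.60), Maf at 0.976 (0.383 to 2.41), Bhlhe40 at 0.982 (0.552 to 1.73) and Nfil3 at 0.761 (0.294 to 1.86). Over all normal Foxp3+ cells Maf was 2.60 (1.32 to 4.81) and Gata3 was 1.12 (0.594 to 1.96). The normal Il1rl1+ cells had a median of 5506 UMIs against 3947 in Il1rl1- cells, and 11 of the 16 were Ccr7-.

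How many of the 10 factors a cell carried was counted after each cell was thinned to 2417 UMIs, which left out 393 tumor and 708 normal cells of lower depth. Tumor Foxp3+ Ccr7- cells carried a mean of 3.33 factors, Foxp3+ Ccr7+ cells 2.56, Foxp3- Ccr7- cells 1.58 and Foxp3- Ccr7+ cells 0.837. Normal cells had means of 2.76, 1.13, 1.62 and 0.612. Thinning evens UMIs and not the number of genes. Before thinning, the median genes per cell were 1919, 2010, 1459 and 1502 in the tumor gates, in the same order. No other genes were counted per cell in this way, and the part of gene number in the means was not tested. At least 3 factors were found in 72.1% of 689 tumor Foxp3+ Ccr7- cells and in 65.5% of the 29 normal cells of that gate. In Foxp3+ Ccr7+ cells the shares were 48.7% of 390 tumor and 11.6% of 164 normal cells, the gate where the libraries lay furthest apart. The Foxp3- Ccr7+ cells, at 5.20% and 2.47%, had the lowest shares.

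**Figure D5:**
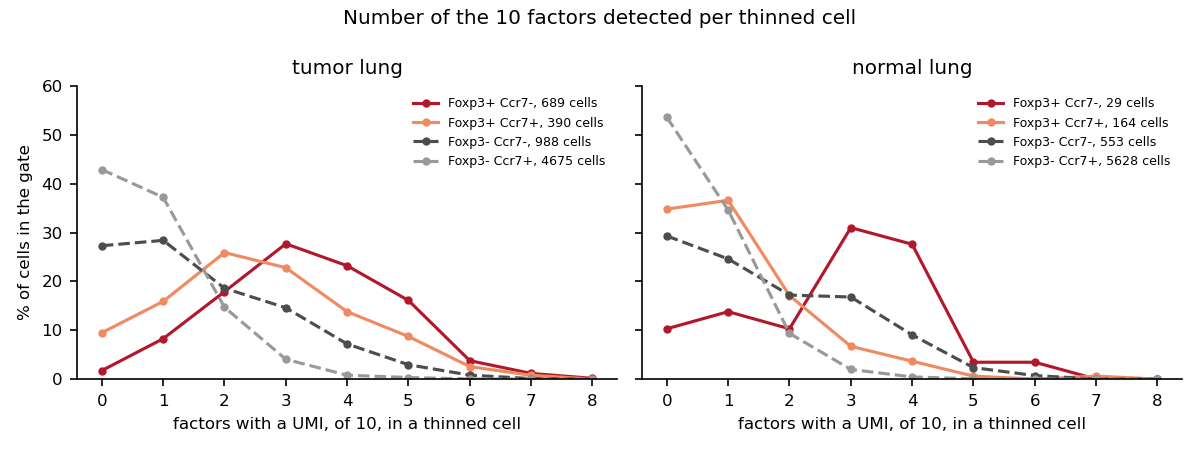
Share of cells in a gate (vertical axis, percent) by the number of the 10 factors with a UMI in a cell thinned to 2417 UMIs (horizontal axis), for 4 gates of the tumor library (left) and the normal library (right). Tumor Foxp3+ Ccr7- cells peak at 3 factors, and normal Foxp3+ Ccr7+ cells peak at 1.

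Pairs of factors found in the same cell were described within the Ccr7- gates. In tumor Foxp3+ Ccr7- cells each of 90 ordered pairs was described by the share of cells with a factor among cells with and without its partner, and in 0 of the 90 did the 95% Clopper-Pearson intervals lie apart. Rora was found in 60.7% (56.1 to 65.1) of cells with Bhlhe40 and in 51.2% (44.2 to 58.1) of cells without it. Prdm1 was found in 18.3% (9.52 to 30.4) of cells with Irf4 and in 9.06% (6.94 to 11.6) of cells without it. In tumor Foxp3- Ccr7- cells the intervals lay apart in 31 of 81 ordered pairs, in each case with the factor more frequent beside its partner. Pparg was in 0 of these thinned cells, so the pairs that describe the share of Pparg could not lie apart. There Bhlhe40 was found in 60.4% (54.3 to 66.2) of cells with Rora and in 21.2% (18.2 to 24.4) of cells without it, and Rora in 55.2% (46.0 to 64.1) of cells with Maf and in 23.9% (21.1 to 26.9) of cells without it. The normal Foxp3- Ccr7- cells had 20 of 90 such pairs, 18 of them more frequent together. Both orders of a pair come from the same cells, so they are not separate observations. The gates differ in size, 689 against 988 thinned cells in the tumor library, which sets the width of the intervals. Pairs of other genes were not counted, so whether these counts are particular to the 10 factors was not tested. A mix of cell states within a gate was not tested either.

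Other genes of the same network gave a frame for the 10 factors in the tumor Foxp3+ over Foxp3- comparison, whose all-gene median log2 ratio was 0.22, with 29.5% of all genes higher and 13.0% lower. Of 7 tested AP-1 and interferon regulatory partners of Batf and Irf4, 1 was higher and 1 lower, with a median of -0.09. They were Irf8 at a ratio of 6.22 and Jun, the partner in composite elements, at 0.478. Among the 4 other Ikaros family genes, Ikzf2, which encodes Helios, was highest at 23.4, while Ikzf1, the founding member, was lower at 0.358. Of 10 factors of resting T cells 0 were higher and 8 lower, with a median of -1.76, from Tcf7 at 0.119 to Foxo1 at 0.947. Of 8 lineage factors of other CD4 T cells 5 were higher and 2 lower, from Zeb2 at 7.59 down to Eomes, which had 0 UMIs in Foxp3+ and 35 UMIs in Foxp3- cells and so was at least 2.79-fold lower against a floor of 3 counts. Of 10 other activation-linked factors 5 were higher and 1 lower, with Id2 at 4.68 and Myb at 0.298. All 20 effector Treg products were higher, with a median of 4.11, from Icos at 2.64 to Klrg1 at 46.2; the lists were chosen with these data known.

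Those lists followed the factors in the other splits only in part. Between tumor Foxp3+ Ccr7- and Ccr7+ cells, 8 of 10 resting factors were lower, beside 6.73% of genes, with Bach2, a repressor that opposes effector differentiation, at 0.134, and 13 of 20 products were higher, beside 9.39%, with Gzmb at 2.66. Between the libraries in Foxp3+ Ccr7+ cells, 9 of 10 resting factors were lower, beside 8.47% of genes, Klf2 among them at 0.261, and 20 of 20 products were higher, beside 25.6%, from Icos at 1.69 to Klrg1 at 139. By Il1rl1 in tumor Foxp3+ cells, 4 of 7 lineage factors were lower, beside 10.7% of genes, with Zeb2 at 0.225, and 4 of 20 products were higher, beside 5.83%, including the gating gene itself. The lowest product was Lag3, an inhibitory receptor, at 0.380. By Cxcr3, the lineage factor with the largest ratio was Tbx21, the type 1 factor, at 2.30. Of 20 products 3 were higher and 1 lower, beside 5.10% and 6.83% of genes, from Gzmb at 2.42 to Il1rl1 at 0.431.

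The genes most like each factor were found by Pearson's r of log2(CPM + 1) over the 8 gates, among 8933 genes with at least 200 UMIs in kept cells. The 8 points share 2 libraries and differ in depth, so that r describes them and carries no p. The genes named are the top 3 by r among 8933, so a high r follows from the choice. Pearson's r also ignores the size of a change. Cops6, named for Rora, stood at 79.7 CPM in normal Foxp3- Ccr7+ and 96.9 CPM in normal Foxp3+ Ccr7- cells. Rora itself stood at 36.0 and 501 CPM in these gates. Batf was most like Anapc16 (r = 0.991), Stat3 (0.973), the signal transducer of several cytokine receptors, and Ppp6r1 (0.970). Irf4 was most like Rbbp6 (0.963), Gm11707 (0.954) and Med14 (0.943). Prdm1 was most like Akr1a1 (0.994), Bak1 (0.992) and Zcchc18 (0.992), and Nfil3 was most like Pglyrp1 (0.995), Snx2 (0.995) and Capg (0.993). Rora was most like Abcb1a (0.991), Gna15 (0.991) and Cops6 (0.989), and Maf was most like Gna15 (0.995), Uhrf2 (0.992) and Plekhb2 (0.992). Gata3 was most like Cyfip1 (0.990), Ndufb7 (0.989) and Fdft1 (0.989). Ikzf3 was most like S100a6 (0.996), the chemokine receptor gene Ccr2 (0.994) and Grb7 (0.992). Bhlhe40 was most like Bcl2a1b (0.980), Samd4b (0.973) and Runx2 (0.972). Pparg, with 47 UMIs in all, was most like Rnf7 (0.977), Ndufaf7 (0.968) and Itpa (0.961). No gene was named for more than 2 of the factors, and Gna15 was named for Rora and Maf.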

How the data were processed

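Per the labels, CD4 T cells sorted from lung gave 1 gene expression and 1 receptor library per tissue. The authors deposited raw UMI counts per gene and cell, made with Cell Ranger 3.1.0 per the file headers, on mm10 per the submitters' processing notes. Cells with at least 500 genes and under 10% mitochondrial UMIs were kept, which removed 120 of 7788 tumor and 61 of 7745 normal barcodes. A further 533 and 602 barcodes were left out as likely doublets because they carried over 2 alpha or over 1 beta chain called productive, and no doublet caller was run. UMIs were summed per gate and scaled to 1000000 UMIs per gate (CPM). With 1 library per tissue no test was made: ratios have exact 95% intervals conditional on the total, levels have Poisson intervals, and shares have Clopper-Pearson intervals, all for counting error only. The ratio code was checked on simulated data with known answers. Genes with at least 20 UMIs in both arms together were called at 1.5-fold. All 10 members are named, and of the other lists described the genes with the largest or smallest ratio; 1 result under this rule is not reported here. The members and lists were chosen with earlier results of these data known. Alternatives were the cell filter, receptor doublets, scaling, thinning to 2417 UMIs, stricter Foxp3 and Ccr7 gates, per-cell means, cycling cells, the count minimum and a 2-fold call. Python 3.11.15, numpy 2.4.6, scipy 1.17.1, pandas 2.3.3 and matplotlib 3.10.9 were used.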

Additional observations from a re-analysis of the deposited data

Results flagged for a closer look

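Some ratios had intervals on opposite sides of 1 in different gates or libraries. These differences were not tested. Tumor over normal, Rora had a ratio of 2.80 in Foxp3+ Ccr7+ cells, 0.727 in Foxp3- Ccr7- cells and 1.19 in Foxp3- Ccr7+ cells. Tumor over normal, Maf had 2.46, 0.810 and 1.47 in the same gates. Gata3 had 1.40 in Foxp3+ Ccr7+ cells and 0.912 in Foxp3- Ccr7+ cells.

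Il1rl1+ over Il1rl1- Foxp3+ cells had a Maf ratio of 0.808 in the tumor and 2.60 in the normal library, which held 16 Il1rl1+ cells. With thinned cells the tumor value turned to 0.21 on the log2 scale, and within normal Foxp3+ Ccr7- cells the ratio was 0.976 (0.383 to 2.41). Cxcr3+ over Cxcr3- Foxp3+ cells had a Bhlhe40 ratio of 0.921 in the tumor and 4.01 in the normal library, which held 9 Cxcr3+ cells. With thinned cells the normal value was 0.37 on the log2 scale. Among Foxp3+ Ccr7- cells the Bhlhe40 ratios were 0.741 and 1.89, the latter from 5 normal Cxcr3+ cells. With thinned cells the normal value turned to -0.96 on the log2 scale, the same direction as in the tumor library.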

How the results depend on the processing

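Of 264 counts of factors past 1.5-fold, 247 stayed within 1.5 times and 17 moved. These counts include factors lower as well as factors higher, and the lower counts were all 0 in the main setting. A 0 that stayed 0 is scored as unmoved, and the 2-fold call cannot raise it. Of 2311 log2 ratios, 2142 stayed within their counting interval, 166 moved and 3 reversed. The count minimum and the 2-fold call cannot change a log2 ratio, so all 215 ratios under each of them stayed by construction. With thinned cells 136 of 204 stayed, and without Foxp3- cells that had Treg gene UMIs 75 of 101 stayed. Within tumor Foxp3+ cells, the 4 factors higher without Ccr7 became 1 with median-of-ratios scaling, 2 with at least 2 Foxp3 UMIs and 0 at 2-fold. The 3 higher with Il1rl1 became 1 with at least 2 Foxp3 UMIs, 5 without cycling cells and 1 at 2-fold, and 1 factor was lower with thinned cells against 0. The 2 higher with Cxcr3 became 1 with thinned cells, 1 with at least 2 Foxp3 UMIs and 0 at 2-fold. Tumor over normal, the 7 higher in Foxp3+ Ccr7+ cells became 4 at 2-fold. The 2 higher in Foxp3- Ccr7- cells became 4 with thinned cells and 1 at 2-fold, and 0 lower became 1 with no minimum of UMIs and 2 without Foxp3- cells that had Treg gene UMIs. The 3 higher in Foxp3- Ccr7+ cells became 5 with thinned cells and 5 with at least 2 Ccr7 UMIs. The Treg gene and Ccr7 alternatives were chosen after seeing the data. With thinned cells, reversed log2 ratios were -0.17 for Pparg by Cxcr3 in tumor Foxp3+ Ccr7- cells, -0.49 for Nfil3 by Il1rl1 in normal Foxp3+ cells and -0.96 for Bhlhe40 by Cxcr3 in normal Foxp3+ Ccr7- cells. A higher fold threshold removes calls by construction, and for the other settings the cause was not tested. No paired analysis was possible because each tissue has 1 library and no ratio comes from a test. Normal Foxp3+ values are limited by depth, with 31 Ccr7- cells.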
